A study of Tupaia belangeri chinensis with 12 samples.

Results

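Gene expression was compared between the subventricular layers of the fetal cortex and the midpoint of the layers on either side of them. For each gene, the mean of the inner subventricular zone (ISVZ) and the outer subventricular zone (OSVZ) was set against the mean of the ventricular zone (VZ) and the cortical plate (CP), on log2 of scaled FPKM plus 1. FPKM is a read density that corrects for transcript length and sequencing depth. A gene that changes evenly from VZ to CP gives a difference near 0, a gene that is highest in the subventricular layers gives a positive one, and a gene that is lowest there gives a negative one. All 12 of the 12 libraries of the series entered the comparison, 3 for each layer. They are poly(A) RNA from cortex of the Chinese tree shrew (Tupaia belangeri chinensis), labelled embryonic day 37, and the names of the deposited tables give day 35. The layers were cut by laser from Nissl-stained frozen sections, so a library is a mixture of all cells in that strip of tissue. No genotype or treatment is given. The layers share the library numbers 1 to 3, but nothing in the labels says whether a number stands for an animal, so the p-values speak only for the spread among these libraries, which may be technical. The values hint that libraries of the same number belong together, and the main fit did not use the numbers.

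The VZ lines the ventricle and holds the cell bodies of radial glia, the stem cells of the cortex. Radial glia produce intermediate progenitors and outer radial glia, which divide in the subventricular zones, and young projection neurons pass through these zones on their way to the CP. In primates the outer zone is wide and holds many outer radial glia, and the tree shrew is a close relative of primates. The CP holds neurons that have arrived and begin to form axons and synapses.

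The layer labels were checked against markers. PAX6, a transcription factor of radial glia, stood at 28.6, 21.1 and 36 in the VZ, 27.5, 12.7 and 18.6 in the ISVZ, 18.6, 14.4 and 13.3 in the OSVZ and 0.353, 0.188 and 0.761 in the CP. The intermediate progenitor factor EOMES measured 66.8, 41.9 and 63.1 in the VZ, 74.7, 31.9 and 56.6 in the ISVZ, 55.1, 38.4 and 38.9 in the OSVZ and 0.185, 0.139 and 0.371 in the CP. MEF2C, a transcription factor of CP neurons, was at 8.7, 5.81 and 8.88 in the VZ, 12.1, 13.3 and 7.03 in the ISVZ, 19.3, 14.8 and 6.51 in the OSVZ and 164, 142 and 138 in the CP, and NEUROD6, of young projection neurons, ranged from 26.5 in VZ 2 to 694 in CP 3, so these markers tell the CP from the other layers. EOMES overlapped between VZ, ISVZ and OSVZ and does not check those labels against each other. BCL11B, a marker of deep CP neurons, went against its role, with 14.8, 14.1 and 15.6 in the VZ, 14.2, 30.5 and 31.8 in the ISVZ, 7.34, 10.8 and 15.9 in the OSVZ and 9.96, 8.55 and 14 in the CP. The transcript of TTR, which is made by the choroid plexus, was uneven within the VZ, at 529, 2514 and 33.8 in the VZ libraries, and was between 0.0217 and 48.4 in the other 9. Depth cannot be read from FPKM, but the width of the deposited bounds gives a relative depth between 0.688 and 1.68, and the median half-width of the bounds was 6.77% to 11.1% of the value.

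Of 14101 genes tested with limma, 1132 were higher in the subventricular layers than the midpoint (8.03% of those tested) and 1159 were lower (8.22%), at an adjusted p below 0.05. A size of at least 2-fold was reached by 148 higher and 115 lower genes. The median over all genes was 0.0028. Calls depended on single libraries: without VZ 2 they came to 727 higher and 688 lower, without OSVZ 1 to 722 and 687, and without OSVZ 2 to 762 and 748. No called gene changed sign in those fits, but the genes were called on the same libraries, so the kept sign adds no support.

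The called genes had several shapes. Among the higher genes, 604 had a subventricular mean above both outer layers, 514 lay between them with the VZ as the high end, and 14 lay between them with the CP as the high end. Among the lower genes, 732 were below both outer layers, 328 lay between them with the CP as the high end, and 99 with the VZ as the high end. Of the higher genes 53.4% thus lay above both outer layers, and of the lower genes 63.2% lay below both. The VZ was above the CP in 999 of the 1132 higher genes, and the CP above the VZ in 828 of the 1159 lower genes. The same orders were not counted over all tested genes, so these counts are a description only. Because a mixture of VZ and CP tissue lies above the midpoint on a log scale, the difference was also taken on FPKM without the log. There, 43 of the 1132 higher genes turned negative, 42 of them with the VZ as the high end, and 0 of the 1159 lower genes turned positive. The midpoint without the log is never below the midpoint with it, so lower genes could hardly turn. The 0 is therefore no check of them.

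A stricter test asked for levels beyond both outer layers, taking the larger of the p-values against VZ and against CP. Only 2 genes passed it as peaks (0.0142% of those tested) and 12 as dips (0.0851%), while 246 and 324 reached an unadjusted p below 0.05. Levels without overlap between the 6 subventricular and the 6 outer libraries occurred in 104 genes above (0.738%) and 171 below (1.21%). These calls depended on single libraries: of the 12 fits that each left out 1 library, 9 called no peak and 7 called no dip, the latter without VZ 1, VZ 2, VZ 3, ISVZ 2, OSVZ 1, OSVZ 2 or CP 3. The smaller of the differences kept its sign in each of these fits for all 14 genes wherever it could be fitted. These genes were picked for differences far from 0 in the same libraries, so the kept sign adds no support.

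The gene with a symbol of its own that passed the peak test was SHB, an adaptor protein that carries signals from receptor tyrosine kinases. Its levels were 17.3, 12.1 and 15 in the VZ, 30.8, 25.4 and 26.5 in the ISVZ, 34.2, 34.5 and 32 in the OSVZ and 12, 7.58 and 10.4 in the CP. Each of the 6 subventricular libraries was above each of the other 6, and the OSVZ libraries were above the ISVZ libraries. The difference from the midpoint was 1.27 ± 0.11 (SE, n = 3 libraries a layer; 2.41-fold, limma adjusted p = 0.000124), and the peak test gave an adjusted p of 0.0259. With 1 library left out, that adjusted p ranged from 0.0237 to 0.169. In whole strips of tissue, fewer cells of a type and less RNA per cell cannot be told apart, for this gene and those below. SHB spans 2:120958435-121105948 in the coordinates of the deposited tables.

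IGFBPL1, a secreted protein related to the binding proteins of insulin-like growth factors, lies on the same chromosome at 2:120618536-120638726, with 319708 bases and 2 other numbered genes between it and SHB. Its levels were 309.9, 196 and 225 in the VZ, 521, 344 and 388 in the ISVZ, 425, 512 and 444 in the OSVZ and 59.1, 50.4 and 139.6 in the CP. All 6 subventricular libraries were above the other 6, and the CP libraries were the lowest. It was 1.69 ± 0.23 above the midpoint (adjusted p = 0.0011), but did not pass the peak test (adjusted p = 0.689). The other gene to pass the peak test, TSORFli1147, is a numbered copy of 198 bases. It was listed at 0 in 9 libraries, the ISVZ included, and at 3.42, 2.12 and 3.45 in the OSVZ. It passed the filter on low values only through the OSVZ, so its call supports nothing, and SHB is the 1 other peak. IGFBPL1 and TSORFli1147 were named after their values were seen, as were PLXNA2, FOXO6, NTRK2, HMGCS1, IDI1li1, LINC-COG6-7, FEZ2li1, TTR, SLBP, POU3F3 and OLIG2.

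FOXO6, a forkhead transcription factor, also had no overlap, at 7.28, 9.42 and 7.09 in the VZ, 13.3, 14.1 and 9.98 in the ISVZ, 15.7, 11.8 and 15.3 in the OSVZ and 8.49, 7.64 and 7.47 in the CP (difference 0.68 ± 0.11, adjusted p = 0.00245; peak test 0.162). DUSP1, a phosphatase of the immediate early response, was at 6.69, 6.09 and 5.74 in the VZ, 8.9, 9.57 and 8.5 in the ISVZ, 9.37, 10.8 and 8.21 in the OSVZ and 5.19, 6.21 and 5.46 in the CP (difference 0.57 ± 0.08, adjusted p = 0.00139). It too was higher in all 6 subventricular libraries than in the other 6.

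Of 34 genes of newborn and migrating neurons tested, 9 were higher (26.5%, against 8.03% over all genes). A further 3 were lower (8.82%, near the 8.22% over all genes). The same shares over all genes apply to each list below. The median was 0.22, and 22 of the 34 lay between VZ and CP with the CP as the high end. The summed level of the 34 genes was 2489 to 3706 in the VZ and 8210 to 9571 in the CP. The lower genes were DAB1, described with the CP neurons, SSBP2 and CXADR. UNC5D, a netrin receptor known from multipolar cells of the subventricular zone, was at 13.9, 3.67 and 5.68 in the VZ, 32.6, 21.2 and 11.5 in the ISVZ, 25.8, 35.3 and 22.1 in the OSVZ and 3.33, 5.58 and 4.58 in the CP. Its difference was 1.91 ± 0.30 (3.76-fold, adjusted p = 0.00221), with VZ 1 above ISVZ 3 as the overlap between the groups. NRN1, a protein that promotes neurite growth, was at 16.2, 4.31 and 10.6 in the VZ, 25.8, 14.3 and 22.1 in the ISVZ, 19.3, 23.2 and 27 in the OSVZ and 11.4, 7.08 and 8.3 in the CP (difference 1.17 ± 0.26, adjusted p = 0.0124). SLC17A6, the vesicular glutamate transporter that appears early in projection neurons, is not in that list but in those of intermediate progenitors and synapses, and was at 9.17, 2.34 and 5.36 in the VZ, 20.3, 12.2 and 8.51 in the ISVZ, 16.4, 18.9 and 15.4 in the OSVZ and 7.28, 9.3 and 2.93 in the CP (difference 1.29 ± 0.31, adjusted p = 0.018). In all 3 genes VZ 2 was the lowest VZ library. DCX and ELAVL4, general markers of young neurons, did not pass, with differences of 0.12 ± 0.15 and 0.23 ± 0.12; ELAVL4 did pass without VZ 1 (adjusted p = 0.034).

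Several guidance receptors were higher as well. Among 26 semaphorins, plexins and neuropilins tested, 6 were higher and 0 lower (median 0.23), and among 31 ephrins, netrins, slits and their receptors 5 were higher and 1 lower (median 0.22). NRP1, a receptor for class 3 semaphorins, was at 4.09, 3.0 and 3.15 in the VZ, 14.7, 4.78 and 5.28 in the ISVZ, 17.2, 18.5 and 14.8 in the OSVZ and 5.93, 4.0 and 4.31 in the CP. All 3 OSVZ libraries were above every other library, while ISVZ 2 and ISVZ 3 lay within the CP range, and the difference was 1.28 ± 0.22 (adjusted p = 0.00363). PLXNA2, a plexin that pairs with neuropilins, was at 34.9, 20.7 and 26.8 in the VZ, 54.7, 39.1 and 40.3 in the ISVZ, 61.2, 50.1 and 39.1 in the OSVZ and 30.1, 19.2 and 26.1 in the CP, with the 6 subventricular libraries above the other 6 and a difference of 0.83 ± 0.16 (adjusted p = 0.00724). PLXNA4 (0.91 ± 0.25, adjusted p = 0.0306), SEMA4D (0.69 ± 0.17, 0.0223) and UNC5A (1.15 ± 0.34, 0.0431) also passed. Each of these 3 calls was lost when any of VZ 2, OSVZ 1 or OSVZ 2 was left out, with adjusted p up to 0.076 for PLXNA4, 0.0576 for SEMA4D and 0.0992 for UNC5A, which was lost in 9 of 12 such fits. Against the midpoint, PLXNA4, SEMA4D and UNC5A passed in the OSVZ (limma adjusted p = 0.0213, 0.0195 and 0.0432). None of the 3 passed in the ISVZ (0.541, 0.373 and 0.363). PLXNA4 overlaps PLXNA4li1 and PLXNA4-AS-9, so reads may be divided between them. EPHA3, an ephrin receptor and the highest-level member of its list that did not pass, was 0.51 ± 0.24 above the midpoint (adjusted p = 0.163), and passed without OSVZ 3 (0.031). The exception in the other direction was NEO1, a receptor for netrins and repulsive guidance molecules, at -0.43 ± 0.12 (adjusted p = 0.0358), a call lost in 8 of 12 fits with 1 library left out. CNTN2, an axonal adhesion molecule, was the only higher gene of 26 axon growth genes, at 2.23, 1.13 and 2.82 in the VZ, 6.84, 2.36 and 4.63 in the ISVZ, 13.1, 11.8 and 16.6 in the OSVZ and 6.24, 3.7 and 6.23 in the CP (difference 1.03 ± 0.22, adjusted p = 0.0106).

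Some genes of the oligodendrocyte lineage were higher in the subventricular layers. Of 15 tested, 6 were higher and 0 lower, with a median of 0.48. Means of 7 lay above both outer layers, and 6 lay between them with the VZ as the high end. The summed level was 379 to 442 in the VZ, 173 to 218 in the ISVZ, 171 to 240 in the OSVZ and 59.6 to 103 in the CP. PTPRZ1, the highest-level member that did not pass, was -0.19 ± 0.20 from the midpoint. Its means were 217 in the VZ, 92.8 in the ISVZ, 84.5 in the OSVZ and 47.0 in the CP. OLIG1, a transcription factor of that lineage, was at 3.36, 3.83 and 5.67 in the VZ, 13, 6.25 and 4.48 in the ISVZ, 21.9, 30.7 and 31.7 in the OSVZ and 6.32, 2.01 and 2.23 in the CP. The OSVZ stood above all other layers, and ISVZ 2 and ISVZ 3 were within the range of the outer layers. The difference was 1.73 ± 0.27 (adjusted p = 0.00221). PDGFRA, the growth factor receptor that marks oligodendrocyte precursors, showed the same order, at 1.02, 1.34 and 1.52 in the VZ, 3.46, 1.88 and 1.76 in the ISVZ, 5.91, 7.31 and 9.09 in the OSVZ and 2.56, 0.625 and 0.511 in the CP (difference 1.27 ± 0.22, adjusted p = 0.00357). OLIG2, which is also used by cortical progenitors and lies 38170 bases from OLIG1 with no entry between them, had another profile. It was at 15.4, 18.6 and 18.8 in the VZ, 19.8, 16.2 and 21.6 in the ISVZ, 16.2, 26.8 and 25.8 in the OSVZ and 3.37, 1.5 and 0.89 in the CP, so VZ and ISVZ overlapped and the CP alone was low (difference 1.60 ± 0.19, adjusted p = 0.000594). SOX8 was 0.95 ± 0.18 from the midpoint (adjusted p = 0.00691) at 5.26 ± 0.947 in the VZ, 6.04 ± 2.26 in the ISVZ, 2.71 ± 1.2 in the OSVZ and 0.0474 ± 0.0315 in the CP (mean ± SD, n = 3). OLIG1 was 1.8 higher in the OSVZ than in the ISVZ, which missed the threshold (adjusted p = 0.0545).

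**Figure D1:**
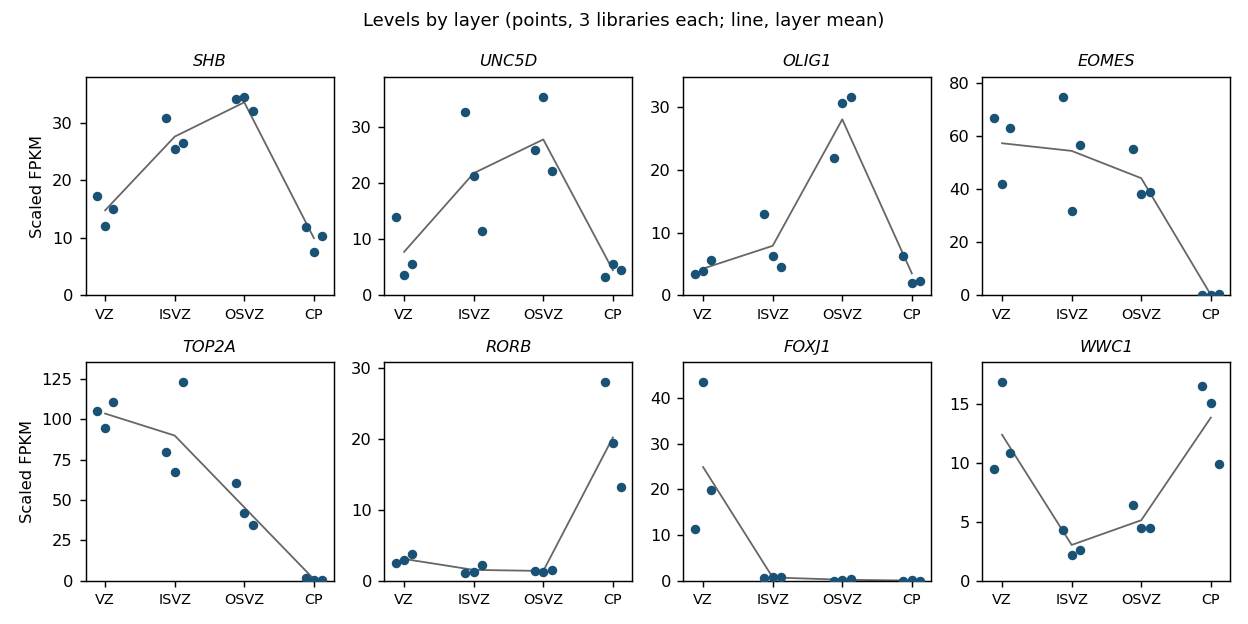
Scaled FPKM (y axis, linear from 0) by layer (x axis) for 8 genes; points are the 3 libraries of a layer and the line joins layer means. SHB, UNC5D and OLIG1 are highest in a subventricular layer, EOMES and TOP2A are near 0 only in the CP, RORB is high only in the CP, FOXJ1 only in the VZ, and WWC1 is high at both ends.

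The 3 largest positive differences were those of the intermediate progenitor genes NEUROD4, EOMES and NHLH1. Of 28 tested, 15 were higher and 1 lower, with a median of 0.63, and 17 of the 28 lay between VZ and CP with the VZ as the high end. NEUROD4, a proneural transcription factor, had the largest difference of all genes tested, 2.72 ± 0.27 (adjusted p = 0.000181), at 96.6, 39.1 and 45.5 in the VZ, 79.4, 34.5 and 53.6 in the ISVZ, 76, 44.8 and 36 in the OSVZ and 0.0205, 0 and 0.338 in the CP. The VZ, ISVZ and OSVZ libraries overlapped and the CP was near 0. EOMES, with the values given above, was 2.53 ± 0.20 from the midpoint (adjusted p = 8.17e-05). NHLH1, a transcription factor of cells that have just left the cycle, was at 29.2, 12.7 and 14.3 in the VZ, 29.5, 13.1 and 23.5 in the ISVZ, 19, 15.4 and 22.7 in the OSVZ and 0.0349, 0.132 and 0.216 in the CP (difference 2.19 ± 0.22), and INSM1, a zinc finger protein that drives the production of intermediate progenitors, at 138, 103 and 112 in the VZ, 183, 103 and 128 in the ISVZ, 146, 116 and 97.1 in the OSVZ and 12, 11.9 and 9.23 in the CP (difference 1.75 ± 0.15). NHLH1 and INSM1 had subventricular means above the VZ, but their levels overlapped those of the VZ and neither passed the peak test.

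Cell cycle genes also lay between a high VZ and a low CP. Among 15 mitotic and G2/M genes tested, 14 were higher and 0 lower (median 1.29), and all 15 lay between VZ and CP. Among 22 genes of DNA replication and G1/S, 16 were higher and 1 lower (median 0.72). TOP2A, the topoisomerase of dividing cells, was at 105, 94.4 and 111 in the VZ, 79.4, 67.3 and 123 in the ISVZ, 60.2, 41.8 and 34.3 in the OSVZ and 1.73, 0.57 and 0.742 in the CP. The ISVZ overlapped the VZ, the OSVZ was lower in every library, and the CP held almost none (difference 2.14 ± 0.19, adjusted p = 0.000124). MKI67 (1.76 ± 0.20), AURKB (1.81 ± 0.17) and CCNB2 (1.80 ± 0.16) of mitosis, and MCM3 (1.50 ± 0.16), RRM2 (1.28 ± 0.17) and CCND2 (1.36 ± 0.15) of replication and G1, had adjusted p between 0.000137 and 0.000939. The exception, SLBP, which binds histone mRNA, was -0.24 ± 0.07 (adjusted p = 0.0327), and that call was lost in 10 of 12 fits with 1 library left out. CDCA3, a mitotic entry factor outside these lists, overlaps TPI1li1 and P3H3 and was 1.97 ± 0.21.

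Most radial glia genes had the VZ as their high end. Of 23 tested, 9 were higher and 0 lower (median 0.38), and 22 lay between the outer layers with the VZ as the high end. SOX2, a transcription factor of neural stem cells, was at 156, 158 and 156 in the VZ, 70.8, 126 and 122 in the ISVZ, 40.9, 44.8 and 40.8 in the OSVZ and 6.63, 6.68 and 3.92 in the CP. ID4, an inhibitor of differentiation factors, was at 106, 126 and 122 in the VZ, 53.6, 51.7 and 51 in the ISVZ, 24.2, 29.2 and 33.7 in the OSVZ and 1.92, 3.76 and 1.61 in the CP. The levels of both genes stepped down from VZ to OSVZ and again to CP, with log2 differences from the midpoint of 1.05 ± 0.15 and 1.01 ± 0.14. On FPKM without the log, both lay below the midpoint: SOX2 averaged 74.1 in the subventricular layers against 81.3 at the midpoint, and ID4 averaged 40.6 in the subventricular layers against 60.2 at the midpoint. In all, 6 of the 9 higher radial glia genes lay below the midpoint on that scale. The same change of sign occurred for NOTCH1, the Notch receptor of radial glia, for TNC, a matrix protein of outer radial glia, and for FZD2 and SFRP1 of Wnt signalling. PAX6 averaged 17.5 in the subventricular layers against 14.5 at the midpoint and kept its sign (log2 difference 1.49 ± 0.19). SFRP1 lost its call in 9 of 12 fits with 1 library left out. Of 18 outer radial glia genes, 3 were higher and 2 lower (16.7% and 11.1%, against 8.03% and 8.22% over all genes, median -0.04). Of the 18, 12 lay between the outer layers with the VZ as the high end. Their summed level was 836 to 972 in the VZ, 388 to 422 in the ISVZ, 266 to 380 in the OSVZ and 194 to 261 in the CP. The lower pair was CRYAB and IL6ST. IL6ST, a receptor subunit for leukaemia inhibitory factor signalling, was at 7.81, 8.57 and 10.1 in the VZ, 6.54, 6.7 and 5.95 in the ISVZ, 6.21, 6.92 and 7.8 in the OSVZ and 11.8, 9.82 and 12.6 in the CP (difference -0.52 ± 0.09, adjusted p = 0.00354).

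Signalling lists were mixed. Of 24 Notch pathway genes 6 were higher and 2 lower (median 0.19). MFNG, the Fringe enzyme that modifies Notch receptors, was at 35, 46.2 and 35.5 in the VZ, 32.2, 32.3 and 46.9 in the ISVZ, 21.7, 20.2 and 20 in the OSVZ and 1.75, 1.32 and 0.999 in the CP (difference 1.57 ± 0.12, adjusted p = 8.17e-05), and HES6, an inhibitor of Hes repressors, was 0.63 ± 0.13. DTX4, a ubiquitin ligase of the pathway, was -0.84 ± 0.17 (adjusted p = 0.00781). Of 26 Wnt genes 3 were higher and 2 lower (11.5% and 7.69%, near the shares over all genes; median 0.12). FZD2, a receptor, was at 20.3, 20.5 and 22.4 in the VZ, 11.5, 11.8 and 16.8 in the ISVZ, 6.48, 6.57 and 6.28 in the OSVZ and 0.315, 0.338 and 0.229 in the CP (difference 0.94 ± 0.09). RSPO3, a secreted Wnt enhancer, was at 1.64, 14.3 and 3.32 in the VZ, 0.876, 0.321 and 1.34 in the ISVZ, 2.23, 0.691 and 3.53 in the OSVZ and 15.2, 5.43 and 8.63 in the CP (difference -1.71 ± 0.42, adjusted p = 0.0192), with VZ 2 far above the other VZ libraries. Of 22 cortical folding genes 4 were higher and 0 lower (median 0.21). ARHGAP11A, a GTPase activating protein of dividing progenitors, was at 16.9, 15.4 and 13.6 in the VZ, 18.4, 18.1 and 21.7 in the ISVZ, 19.1, 13.2 and 11.2 in the OSVZ and 4.01, 3.27 and 1.76 in the CP (difference 1.14 ± 0.16, adjusted p = 0.00123), and ADGRG1, an adhesion receptor mutated in a human cortical malformation, was 0.65 ± 0.10.

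The dips were a mixed set of genes that were high at both ends of the cortex. NECAB3, a calcium-binding protein, was at 2.48, 3.22 and 4.95 in the VZ, 0.0568, 0.923 and 0.273 in the ISVZ, 0.242, 0.266 and 1.18 in the OSVZ and 3.07, 3.87 and 4.03 in the CP (difference -1.66 ± 0.20, dip test adjusted p = 0.0471). WWC1, a scaffold of the Hippo pathway, was at 9.53, 16.8 and 10.8 in the VZ, 4.3, 2.22 and 2.62 in the ISVZ, 6.42, 4.49 and 4.51 in the OSVZ and 16.6, 15.1 and 9.91 in the CP (difference -1.49 ± 0.18, 0.0471). LHFPL6, a membrane protein, was at 6.97, 6.4 and 5.96 in the VZ, 2.55, 3.13 and 3.11 in the ISVZ, 1.31, 1.05 and 2.07 in the OSVZ and 6.38, 10.7 and 6.77 in the CP (difference -1.38 ± 0.13, 0.0244). In these genes the 6 subventricular libraries were below the other 6. LINC-COG6-7, an intergenic noncoding entry, lies within the span of LHFPL6 on chromosome 9 and had the same profile (difference -1.61 ± 0.15, 0.0244), and reads of the pair cannot be told apart with certainty. NECAB3 overlaps PXMP4 and E2F1, and WWC1 overlaps RARS1. OSVZ 3 (1.18) was the only subventricular library with NECAB3 at 1 or more. It passed the filter on low values only through the VZ and CP, so its call supports nothing.

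AIG1, a lipid hydrolase of the membrane, overlaps no other tested gene and was at 18.4, 21.7 and 18.8 in the VZ, 6.97, 5.88 and 7.56 in the ISVZ, 9.5, 8.68 and 12.6 in the OSVZ and 17, 19 and 21 in the CP (difference -1.12 ± 0.10, dip test adjusted p = 0.0176). ANKS1B, a scaffold of the postsynaptic density, was at 16, 15.5 and 19.5 in the VZ, 8.81, 7.24 and 7.64 in the ISVZ, 10.8, 10.9 and 10.8 in the OSVZ and 17.1, 18.1 and 19.2 in the CP (difference -0.85 ± 0.08, 0.0176). FAM124A was -0.90 ± 0.09 (0.0259), RDH12, a retinol dehydrogenase, -0.97 ± 0.12 (0.0471), ADSS2, of purine synthesis, -0.71 ± 0.08 (0.0471), and FEZ2li1, a numbered copy of FEZ2, -0.67 ± 0.08 (0.0471). RDH12 was low in all layers, with means of 3.1 in the VZ, 0.947 in the ISVZ, 1.07 in the OSVZ and 2.76 in the CP. It overlaps RDH11 and ZFYVE26, and FEZ2li1 overlaps CRIM1. NTRK2, the receptor for brain-derived neurotrophic factor, was at 28, 59.6 and 46.6 in the VZ, 9.52, 17.6 and 13.6 in the ISVZ, 5.44, 8.95 and 13.9 in the OSVZ and 34, 28.4 and 24 in the CP. Its 6 subventricular libraries were also below the other 6 and its difference was -1.60 ± 0.24 (adjusted p = 0.00166), but the dip test gave 0.233.

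**Figure D2:**
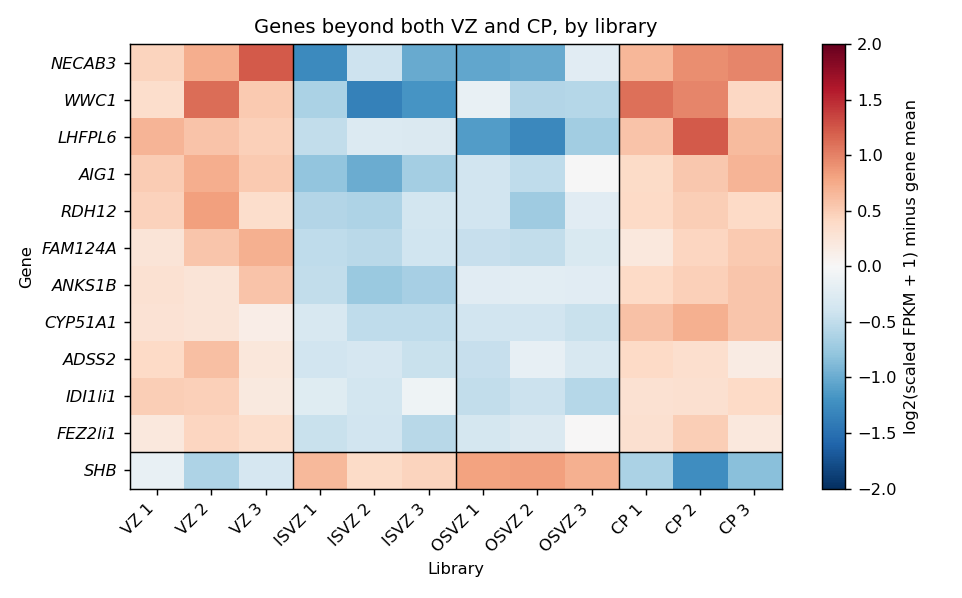
Each cell is log2 of scaled FPKM plus 1 minus the gene's mean over the 12 libraries (colour scale from -2 to 2), for 11 of the 12 genes that passed the dip test and, in the last row, SHB, which passed the peak test. All 6 subventricular libraries are below the 6 VZ and CP libraries for the dips and above them for SHB.

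Several cholesterol synthesis genes were low in the subventricular layers. CYP51A1, the lanosterol demethylase, passed the dip test (adjusted p = 0.0195) at 53.5, 52.5 and 48.2 in the VZ, 35, 30.5 and 30.5 in the ISVZ, 33.3, 33.5 and 32 in the OSVZ and 66, 72.4 and 64.8 in the CP, a difference of -0.84 ± 0.06 (1.79-fold lower). IDI1li1, a numbered copy of the isopentenyl diphosphate isomerase gene, passed it too (0.025), at 59.7, 59 and 47.9 in the VZ, 35.3, 32.4 and 39.3 in the ISVZ, 29.5, 31 and 27.9 in the OSVZ and 52, 52.4 and 55.8 in the CP. CYP51A1 overlaps AKAP9 and XRCC4li3, and IDI1li1 overlaps WDR37 and IDI1-AS-1, so reads may be divided between them. HMGCS1, the synthase at the entry of the mevalonate pathway, was at 139.8, 141 and 117 in the VZ, 89.4, 72.9 and 73.2 in the ISVZ, 102, 92.3 and 98.2 in the OSVZ and 329, 378 and 251 in the CP, below both outer layers in all 6 libraries and highest in the CP (difference -1.22 ± 0.11, adjusted p = 0.000124; dip test 0.242). A list of the pathway was then drawn up after these values had been seen, so its counts are a description only. Of 18 members tested, 10 were lower and 0 higher, 15 had means below both outer layers, and the median was -0.45 against 0.0028 for all genes. The share of all tested genes below both outer layers was not taken.

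Some genes of glycolysis were also low. LDHA, the lactate dehydrogenase subunit, was at 163, 166 and 193 in the VZ, 86.5, 77.9 and 105 in the ISVZ, 102, 86.9 and 88 in the OSVZ and 139, 146 and 121 in the CP, with all 6 subventricular libraries lowest (difference -0.75 ± 0.09, adjusted p = 0.000741; dip test 0.182). LDHA overlaps TSG101, so reads may be divided between them. HSPA5, the chaperone of the endoplasmic reticulum and the 1 lower gene of the stress list, was -0.53 ± 0.08 (adjusted p = 0.00191). Of 19 hypoxia and glycolysis genes tested, 5 were lower and 2 higher (median -0.31). EGLN3, an oxygen-sensing hydroxylase, was -0.74 ± 0.15, with the VZ as its high end. The highest of the list, ENO2, was listed near 0 in the VZ and overlaps ATN1, so its value is uncertain.

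Several genes of settled CP neurons were lower than the midpoint, with low levels up to the OSVZ and high levels in the plate. RORB, a nuclear receptor of layer 4 neurons, was at 2.53, 2.94 and 3.79 in the VZ, 1.16, 1.27 and 2.2 in the ISVZ, 1.38, 1.27 and 1.52 in the OSVZ and 28, 19.4 and 13.3 in the CP. Every CP library was at least 13.3 and every subventricular library at most 2.20, and the difference was -1.89 ± 0.17 (adjusted p = 0.000124). DAB1, the adaptor that carries the Reelin signal in migrating neurons, was at 5.94, 7.1 and 9.83 in the VZ, 4.64, 2.08 and 3.14 in the ISVZ, 8.36, 8.05 and 5.68 in the OSVZ and 35.1, 38.8 and 56.2 in the CP (difference -1.71 ± 0.18, adjusted p = 0.000262). MEF2C was -1.54 ± 0.23 (adjusted p = 0.00188). Of 17 upper-layer neuron genes 5 were lower and 1 higher (median -0.18); the higher was POU3F3, a transcription factor also present in progenitors (0.66 ± 0.14, adjusted p = 0.0102), which overlaps 5 other entries. NECAB1 (-0.99 ± 0.26) and CALB1 (-0.87 ± 0.26), calcium-binding proteins, lost their calls without ISVZ 3 or CP 3, and CALB1 in 9 of 12 such fits.

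Of 18 deep-layer genes, 2 were lower and 0 higher (median -0.11). FEZF2, which specifies subcerebral neurons, was at 11.1, 9.99 and 13.2 in the VZ, 9.67, 3.54 and 5.75 in the ISVZ, 10.1, 6.39 and 7.19 in the OSVZ and 19.5, 8.88 and 32.5 in the CP (difference -0.98 ± 0.28, adjusted p = 0.0379), and CRYM was -1.80 ± 0.53 (0.0419); these calls were lost in 10 and 9 of 12 fits with 1 library left out. The shares of axon and synapse genes that were lower, 7.69% and 9.38%, were near the 8.22% over all genes. Among 26 axon growth genes 1 was higher and 2 were lower, MAP1B (-0.54 ± 0.12) and DPYSL2 (-0.28 ± 0.08), and 23 of 26 lay between VZ and CP with the CP as the high end. Among 32 genes of synaptic transmission 1 was higher, SLC17A6, and 3 were lower, among them NLGN1 (-0.60 ± 0.15) and HOMER1 (-0.42 ± 0.11), and 28 lay between with the CP as the high end. The call of DPYSL2 was lost in 9 of 12 fits with 1 library left out, and that of HOMER1 in 3, without VZ 2, OSVZ 1 or OSVZ 2. NEUROD6 was 0.23 ± 0.36 from the midpoint (adjusted p = 0.702) and GRIA1, a glutamate receptor subunit, 0.08 ± 0.13; neither passed, and their signs turned without VZ 2 and without ISVZ 2.

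The opposite shape, high in the VZ and low from the ISVZ onward, was seen in several motile cilia genes. Of 13 cilia and ependyma genes tested, 9 were lower and 0 higher (median -0.78). FOXJ1, SPAG6 and RSPH1 passed the filter on low values only through the VZ, so their calls under that filter support nothing. RSPH4A met that filter through the VZ, with OSVZ 3 (1.34) as its only other library at 1 or more, so its call supports nothing either. The count of 9 includes these genes and is a description only. FOXJ1, the transcription factor that drives motile cilia, was at 11.3, 43.4 and 20 in the VZ, 0.517, 0.924 and 0.763 in the ISVZ, 0.0618, 0.196 and 0.449 in the OSVZ and 0.0128, 0.113 and 0.0132 in the CP. Every VZ library was at least 11.3 and every other library at most 0.924, with a difference of -1.74 ± 0.25 (adjusted p = 0.00144). SPAG6 (-1.35 ± 0.30), RSPH4A (-1.24 ± 0.28) and RSPH1 (-1.19 ± 0.33), parts of the ciliary shaft, followed, and RSPH1 lost its call in 7 of 9 fits with 1 library left out. In these 4 genes VZ 2 was the highest library, and VZ 2 was also the highest in TTR.

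The summed level of 9 tested choroid plexus genes ran from 179 to 2864 in the VZ, from 74.5 to 101 in the ISVZ, from 72.3 to 73.2 in the OSVZ and from 58.0 to 109.7 in the CP. Its part in the cilia values was not tested, and without VZ 1 and 2 FOXJ1, SPAG6, RSPH1 and RSPH4A fell under the filter on low values. FOXJ1, SPAG6 and RSPH1 did so without any 1 of the VZ libraries. With no filter FOXJ1 kept its call (adjusted p = 0.0111), while the calls of SPAG6 (0.0593), RSPH4A (0.0642) and RSPH1 (0.13) were lost. Of that list only TRPM3 passed, and it is high in the CP. CLU, a secreted chaperone of astrocytes and ependyma, was at 123, 264 and 178 in the VZ, 26.6, 33.6 and 36.7 in the ISVZ, 19.3, 31.8 and 47.4 in the OSVZ and 23, 30.7 and 38.1 in the CP (difference -1.20 ± 0.23, adjusted p = 0.00691). CRYAB, a small heat shock protein, was at 7.65, 15.4 and 16 in the VZ, 0.498, 1.15 and 2.21 in the ISVZ, 1.23, 1.5 and 1.56 in the OSVZ and 2.9, 2.8 and 1.43 in the CP (difference -1.53 ± 0.22, adjusted p = 0.00154). Without VZ 1 and 2 these were -1.20 and -1.70, with adjusted p of 0.033 and 0.0069. TPPP3, a tubulin-binding protein, was at 33.9, 124 and 74.6 in the VZ, 5.92, 11.4 and 11.2 in the ISVZ, 8.93, 5.56 and 41.8 in the OSVZ and 23, 29.1 and 34.5 in the CP (difference -1.91 ± 0.44, adjusted p = 0.0149), a call lost without VZ 1 and 2 (0.0571). OSVZ 3 was above every CP library and the other 5 subventricular libraries were below them.

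Markers of other cell types were measured beside these groups. Of 12 microglia genes 4 were higher and 0 lower (median 0.45), and C1QB, a complement component, was at 5.86, 8.22 and 7.13 in the VZ, 6.59, 4.78 and 3.16 in the ISVZ, 6.3, 7.88 and 8.01 in the OSVZ and 0.341, 0.307 and 0.454 in the CP, with the CP low and the other layers overlapping. The summed microglia level was 95.5 to 114 in the VZ, 60.1 to 78.5 in the ISVZ, 59.9 to 67.8 in the OSVZ and 15.1 to 19.3 in the CP. Among vessel genes, 3 of 15 for endothelium and 2 of 11 for mural cells were higher and 0 lower; VTN, expressed by pericytes, was at 1.45, 0.696 and 1.13 in the VZ, 2.89, 3.31 and 2.77 in the ISVZ, 1.55, 2.63 and 3.13 in the OSVZ and 1.16, 1.41 and 0.775 in the CP, with all 6 subventricular libraries above the other 6 (difference 0.82 ± 0.14, adjusted p = 0.00414). The endothelial calls of CDH5 and ROBO4 were each lost in 10 of 12 fits with 1 library left out. Of 26 genes of migrating interneurons, 0 were higher and 1 lower, with a median of 0.52. DLX1, a transcription factor of interneurons, averaged 111 ± 28.8 in the VZ, 125 ± 70.3 in the ISVZ, 32.6 ± 11.6 in the OSVZ and 13.4 ± 6.06 in the CP (mean ± SD, n = 3), a difference of 0.63 (adjusted p = 0.251). LUM, a matrix protein of the meninges, was the most negative gene of all tested, at 1.27, 4.51 and 0.905 in the VZ, 0.191, 0.183 and 0.734 in the ISVZ, 0.74, 0.521 and 0.073 in the OSVZ and 12.9, 17 and 13.8 in the CP (difference -2.27 ± 0.25, adjusted p = 0.000307). It was below 1 in all 6 subventricular libraries and passed the filter on low values only through the VZ and CP, so its call supports nothing. The count of lower meningeal genes includes LUM and is a description only. Of 6 meningeal genes 2 were lower, and their summed level was 25.6 to 52.2 in the VZ, 16.1 to 25.4 in the ISVZ, 11.2 to 18 in the OSVZ and 23.0 to 32.8 in the CP; its part in the CP values was not tested.

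**Figure D3:**
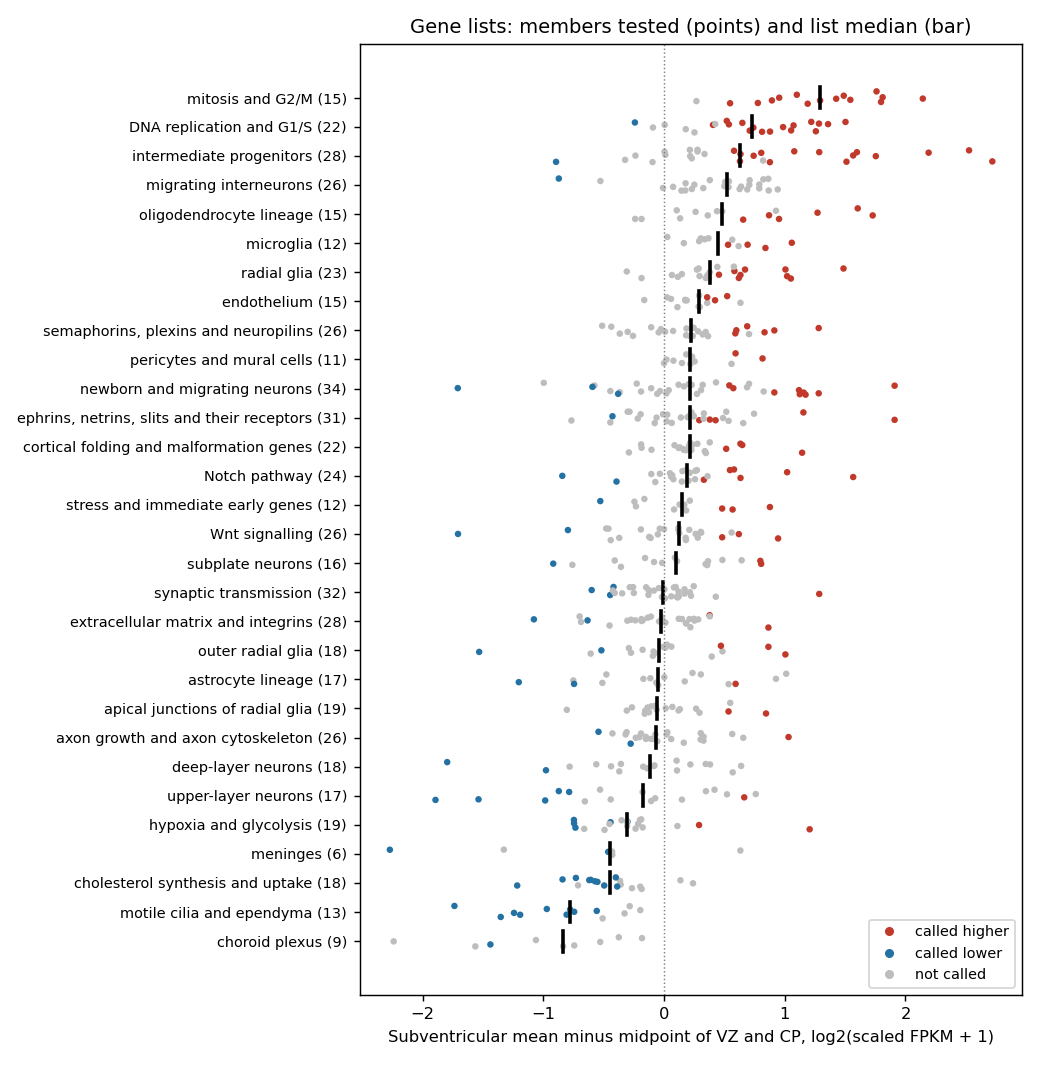
Each point is a tested gene of a list, at its subventricular mean minus the VZ and CP midpoint in log2 (x axis), and bars are list medians; the number of tested members is in brackets and the dotted line is the median of all genes. Cell cycle lists lie furthest to the right and cilia and choroid plexus furthest to the left; the cholesterol list was drawn up after values had been seen.

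The inner and outer zones were then taken apart. Against the midpoint, 1150 genes were higher and 1305 lower in the ISVZ (8.16% and 9.25% of those tested), and 349 and 337 in the OSVZ (2.48% and 2.39%, together 4.86%). Without OSVZ 1 the OSVZ counts were 67 and 49, without OSVZ 2 71 and 72, without VZ 2 156 and 132, without VZ 3 192 and 178, and without CP 2 202 and 203, and without CP 1 the lower count was 211. The ISVZ counts were 532 and 508 without ISVZ 3, and 857 and 776 genes were lower without ISVZ 1 and ISVZ 2. The zones themselves differed in 68 genes higher in the OSVZ (0.482%) and 17 lower (0.121%), together 0.603%, and 29 of these 85 also differed from the midpoint. That count moved by over 1.5 times in each of the 12 fits with 1 library left out, with 354 higher and 198 lower without ISVZ 1 but 1 higher and 2 lower without OSVZ 3. SOX2 was -1.27 in OSVZ minus ISVZ (adjusted p = 0.0393) and FZD2 -0.93 (0.0248), and both were lower in each OSVZ library than in each ISVZ library. With 1 library left out, the call of SOX2 was lost in 9 of 12 fits (adjusted p up to 0.201) and that of FZD2 in 4, without ISVZ 2, ISVZ 3, OSVZ 1 or OSVZ 3 (up to 0.0814). The OSVZ minus ISVZ differences of NRP1 (1.1, adjusted p = 0.0852), PDGFRA (1.34, 0.0567) and TOP2A (-0.96, 0.0821) did not pass.

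The remaining lists are given against 8.03% higher and 8.22% lower over all genes. They were subplate neurons (2 higher and 1 lower of 16, median 0.10), astrocytes (1 and 2 of 17, -0.05), apical junctions of radial glia (2 and 0 of 19, -0.06), extracellular matrix and integrins (2 and 2 of 28, -0.03), and stress and immediate early genes (3 and 1 of 12, 25% and 8.33%, median 0.15). Red blood cells and Cajal-Retzius cells had 3 tested genes each and 0 calls. COL12A1, a fibril-associated collagen, was -0.63 ± 0.14 (adjusted p = 0.0133), and LAMB2, a laminin chain, is uncertain because it was listed near 0 in several libraries and overlaps USP19 and KLHDC8B.

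Ribosomal protein genes were examined after the calls had been seen. Of 264 tested entries, 56 were higher and 0 lower, 201 had subventricular means above both outer layers, and the median was 0.30. Most of these (239) are numbered copies whose reads may be shared, and among the other 25 genes 9 were higher and 0 lower, 23 lay above both outer layers, and the median was 0.33. Over all tested genes 8.03% were higher and 8.22% lower. The share of all tested genes above both outer layers was not taken, so these counts are a description only.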

How the data were processed

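The deposited tables, 1 for each library, hold FPKM per gene and the bounds around it, as Cufflinks lays them out per the file headers. The submitters' processing notes name HISAT2 and Cufflinks. Versions, genome build and strand use are not given in the sources. Each table holds 81792 entries for 81418 gene IDs. Entries of 1 ID were summed (360 IDs), and 4 IDs with a failed status were left out.

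A median-of-ratios factor from 10200 genes at 1 or more in all libraries scaled each library, and log2 of scaled FPKM plus 1 was analysed. The filter asked for a level of 1 in 3 libraries and left 14101 genes. Of these, 1158 are antisense, 1833 are numbered copies and 8365 overlap another tested gene, so reads may be divided between them. Limma 3.58.1 in R 4.3.3 was fitted with 1 coefficient per layer and an intensity trend (8 residual degrees of freedom), and checked on simulated data. Tests are two-sided with Benjamini-Hochberg adjustment over all tested genes and a threshold of 0.05. The peak or dip test takes the larger p of the contrasts with VZ and with CP where both have the same sign. Standard errors are those of the model. No 2 libraries held identical values (highest correlation 0.974).

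The members, the 31 gene lists (530 distinct genes tested) and the genes named were chosen with earlier results of these data known. The rule for names took genes that pass the peak or dip test without overlap between libraries, the 6 largest and 6 smallest other differences, and of each list up to 4 called members and the highest that was not called; 1 gene so chosen is not reported here. Lists are described by counts and medians and were not tested. Alternatives were the deposited FPKM without scaling, quantile normalisation, equal totals, a pseudocount of 0.1, no filter, a filter of 5, no intensity trend, a replicate block and leaving out libraries.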

Additional observations from a re-analysis of the deposited data

Results flagged for a closer look

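For 3 genes described above, the difference from the VZ and CP midpoint was not the same in the inner and the outer subventricular zone, by the limma test of OSVZ minus ISVZ at an adjusted p below 0.05. The OSVZ minus ISVZ value was -1.27 for SOX2 and -0.93 for FZD2 on the log2 scale, and these calls were lost in 9 and 4 of 12 fits with 1 library left out. TSORFli1147, a numbered copy listed at 0 in every library outside the OSVZ, was 1.98 higher there; it passed the filter on low values only through the OSVZ, so the test supports nothing.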

How the results depend on the processing

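Of 98 genes named with a result, 62 kept their direction and their side of the threshold in every alternative that could be fitted. The sign of NEUROD6 turned to -0.1211 without VZ 2 (up to 0.4737 without VZ 1) and that of GRIA1 to -0.03213 without ISVZ 2 (up to 0.1754 without ISVZ 3), and neither had passed. Leaving out 1 library at a time gave 722 to 1232 higher and 687 to 1564 lower genes against the midpoint, 532 to 1258 and 508 to 1618 for the ISVZ, 67 to 432 and 49 to 354 for the OSVZ, 1 to 354 and 0 to 198 for OSVZ minus ISVZ, 0 to 1 peaks and 0 to 11 dips. Without VZ 1 and VZ 2 together, counts were 342 and 360 against the midpoint, 525 and 615 for the ISVZ, 39 and 43 for the OSVZ, 20 and 1 for OSVZ minus ISVZ, and 0 peaks and 0 dips. With no filter, where 41048 genes were tested, they were 646 and 645, 693 and 642, 111 and 120, and 7 and 1 in the same order, with 2 dips. OSVZ minus ISVZ gave 40 higher genes on deposited FPKM, 119 and 37 on quantiles, 31 and 7 with equal totals, 17 and 2 with a pseudocount of 0.1, and 197 and 102 with a filter of 5. On deposited FPKM the OSVZ had 215 lower genes and the dips were 6; quantile normalisation, equal totals and a pseudocount of 0.1 each gave 7 dips. Equal totals, the pseudocount of 0.1 and the filter of 5 left 1 peak each. The cause of these moves was not tested. The midpoint calls split into 1127 higher and 897 lower on deposited FPKM, 1268 and 1033 on quantiles, and 1040 and 1015 with equal totals. Among the 1132 higher and 1159 lower genes, 1 lower gene changed sign in the alternatives, with the pseudocount of 0.1. These genes were called on the same libraries, so the kept signs add no support.

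The labels do not say that the shared library numbers pair the layers, and the main fit did not use the numbers. Deviations from the layer means were correlated at 0.063 to 0.425 (median 0.198) in the 18 same-number pairs, with 16 above 0.1. In the 36 pairs of different numbers the median was -0.129, and 2 were above 0.1. All 12 libraries correlated best with their own number, a hint of pairing from the data and not from the design. With the replicate block, 1469 genes were higher and 1459 lower against the midpoint, 629 and 535 in the OSVZ and 156 and 50 in OSVZ minus ISVZ, with 1 peak and 9 dips.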
